A study of Mus musculus with 18 samples.

Results

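Translation factors and aminoacyl-tRNA synthetases were followed across a red cell differentiation time course in a mouse cell line. The set held 75 genes of the 8251 that the array named. It took every gene whose platform symbol begins with Eif1 to Eif6, Eef1 or Eef2, together with Etf1, Gspt1 and the genes that the array names as tRNA synthetases. The array reads a transcript with a probe set made of several short oligonucleotides, and each gene was read by the one with the highest mean signal among its probe sets with 1 symbol. The 75 genes had 101 such probe sets, 18 genes had more than 1, and 6 genes were read through a probe set whose name marks it as uncertain (an ending such as _f_at, _g_at, _r_at or _s_at).

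The cells were G1E cells of the ER4 subclone. G1E is an erythroid line grown from mouse embryonic stem cells whose Gata-1 gene was disrupted, and ER4 carries Gata-1 fused to an estradiol-binding domain (Gata-1-ER), so that estradiol switches on the missing factor. The groups were cells at 3, 7, 14, 21 and 30 h of estradiol and cells at 0 h, with 3 arrays each, labelled as biological replicates A, B and C. All 6 groups shared the same genotype and the same single clone, and among the 18 arrays there was no untreated culture of a later time and no estradiol on cells without the fusion protein. The submitters describe the 30 h as spanning late burst-forming cells to late erythroblasts.

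In translation, initiation factors bring the initiator tRNA and the small ribosomal subunit to an mRNA, elongation factors feed in charged tRNAs and move the ribosome, and termination factors release the finished chain. Synthetases attach each amino acid to its tRNA, in separate cytosolic and mitochondrial sets for most amino acids. Red cell precursors make globin in bulk, and their kinase Eif2ak1 (heme-regulated inhibitor, HRI) phosphorylates initiation factor eIF2 when heme is short, which slows general initiation and favours a few mRNAs such as that of Atf4.

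The values are signal intensities on a linear scale, 1 per probe set and array, and the 18 arrays had been brought to a common trimmed mean before deposit. For tests, log2(signal + 16) was quantile normalized between arrays. Log2 changes are therefore differences on that scale, which understates the change of dim genes. A gene was called when its limma p, adjusted by Benjamini-Hochberg over all 12422 tested probe sets, was below 0.05. The test measures the spread between biological replicates, and no exact permutation of 3 against 3 arrays can give a p below 0.1, so calls rest on variance pooled over the 18 arrays and across probe sets. The RNA came from whole cultures, in which fewer cells of a type and less RNA per cell cannot be told apart. Median signals lay between 38.2 and 50.9 on the 18 arrays, and 0 pairs of arrays were identical. Of 10 measured erythroid markers, 7 were called higher and 1 lower at 30 h against 0 h. Their summed signal lay at 58775 to 70468 at 30 h, against 12796 to 15469.8 at 0 h. At 30 h limma called 0 of 6 megakaryocyte markers, 0 of 11 neutrophil and macrophage markers and 0 of 9 fibroblast markers in either direction (0, 1 and 2 at an unadjusted p under 0.05), 1 of 8 lymphocyte markers higher (Ms4a1) and 2 of 9 mast cell and basophil markers lower (Mcpt1 and Cpa3). The summed megakaryocyte signal was 185.6 to 260.0 at 14 h and 166.9 to 221.1 at 21 h, against 114 to 124 at 0 h. At 30 h the summed neutrophil and macrophage signal was 707.6 to 902.5, against 506.5 to 630.1 at 0 h, and the summed fibroblast signal was 768.7 to 1058.2, against 651.6 to 758.9 at 0 h. The 30 h arrays lay above the 0 h arrays in both sums, while the median log2 change was 0.39 over the first list and -0.25 over the second. The part of other cells in the changes of the set was not tested.

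The set was brighter than the array as a whole. The median of the members' mean signals was 389, against 68.1 over all genes, and 10 of 75 members (13.3%) averaged under 50, against 44.2% of all genes. Together the members made up 2.22%, 2.23%, 2.11%, 2.11%, 1.995% and 1.84% of the array's summed signal over 0, 3, 7, 14, 21 and 30 h (means of 3 arrays), with a range of 1.80% to 1.91% at 30 h, against 2.06% to 2.30% at 0 h. The 3 arrays at 30 h all lay below the 3 arrays at 0 h. A sum weighs bright genes most. Eef1a1 averaged 18569 at 30 h, against 17578 at 0 h, and Eef2 averaged 9053, against 7104. The summed signal of all 75 members was 57559 to 63056 at 30 h, against 63278 to 70803.5 at 0 h.

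The set moved mostly downward, and its calls grew in number with time, as did those over all genes. At 3 h against 0 h limma called 0 members higher and 0 lower, where 1.02% and 0.388% of all genes were called, and 3 and 2 members had an unadjusted p under 0.05. At 7 h it called 1 member higher and 4 lower, beside 3.21% and 2.11% of all genes. At 14 h it called 3 higher and 17 lower, beside 8% and 8.17%. The 17 became 10 when 14 h replicate A was left out.

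At 21 h against 0 h, 3 members were called higher and 27 lower (36%), beside 11.4% and 13.1% of all genes. At 30 h, 7 members (9.33%) were called higher and 37 (49.3%) lower, beside 14.7% and 16.5% of all genes. Counts at 30 h for role classes, gene lists and markers stand beside these same shares. The 7 became 4 when 0 h replicate C was left out, whereas the 37 stayed between 33 and 36 with each array of 30 h or 0 h left out in turn. Among the called members, 2 were at least 2-fold higher and 22 at least 2-fold lower. All 3 arrays at 30 h lay above all 3 at 0 h for 13 members (20.4% of all genes) and below them for 37 (21.6%). The median log2 change of the members over 3, 7, 14, 21 and 30 h was -0.00, -0.15, -0.16, -0.29 and -0.51, while the median of all genes stayed between -0.01 and 0.05. An F test over the 6 times called 42 of 75 members (56%), beside 32% of all genes.

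**Figure D1:**
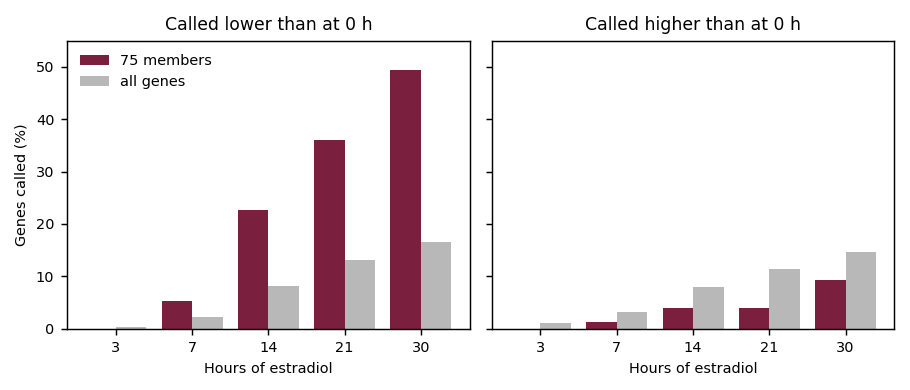
Share of the 75 translation genes called lower (left) or higher (right) than at 0 h at each time of estradiol, in percent (dark bars), beside the share of all 8251 genes (grey bars). The lower share of the members reached 49.3% at 30 h against 16.5% of all genes, while their higher share stayed below that of all genes.

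**Figure D2:**
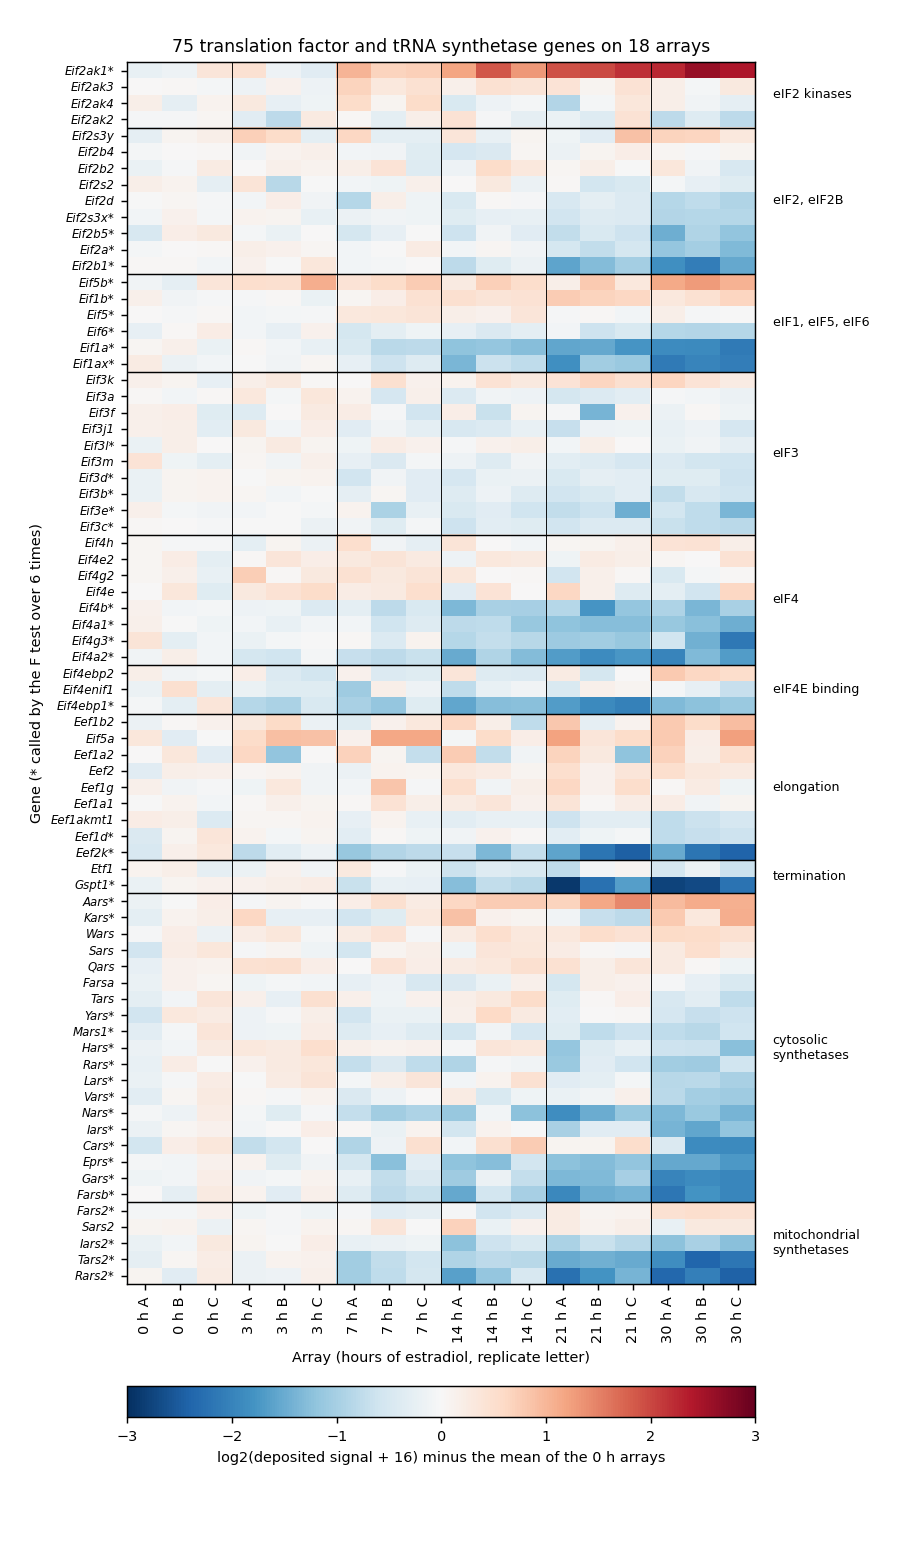
Log2(deposited signal + 16) of each member on each of the 18 arrays (columns, by hours of estradiol and replicate), less the mean of its 0 h arrays, with members grouped by role. Red is higher and blue is lower than at 0 h, an asterisk marks the 42 members called by the F test, and most of the marked rows turn blue at 21 and 30 h.

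Among the 4 kinases of eIF2, only Eif2ak1, the heme-regulated kinase, was called. Its signal was 1368, 1744 and 1541 at 30 h, against 233, 245 and 354 at 0 h. Its means over 0, 3, 7, 14, 21 and 30 h were 278, 278, 487, 790.4, 1165 and 1551. The 30 h and 0 h arrays were far apart, with a log2 change of 2.36 (SE 0.20, adjusted p 2.19e-08). It was the member with the largest rise at every later time at which a member was called higher against 0 h. The call at 7 h against 0 h (log2 0.83, adjusted p 0.0201) was lost without 0 h replicate A (adjusted p 0.0978), 0 h replicate B (0.0902) or 7 h replicate A (0.0947), and with scaling to a common median (0.101) or the compared times alone (0.0540). The other kinases read dimly. Eif2ak2 (PKR, a sensor of double-stranded RNA) had 16.6, 27 and 16.5 at 30 h, against 39.2, 39.3 and 42.6 at 0 h (adjusted p 0.120). Eif2ak3 (PERK, of the endoplasmic reticulum stress response) had 23.7, 17.4 and 27 at 30 h, against 19.1, 20.1 and 17.8 at 0 h (adjusted p 0.732). Eif2ak4 (GCN2, a sensor of uncharged tRNA) averaged 36 at 30 h, against 38.7 at 0 h (adjusted p 0.920). Values this low carry little weight on these arrays.

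eIF2 carries the initiator tRNA, and eIF2B reloads it with GTP. Of 9 members of this group, which also takes in the separate factors Eif2a and Eif2d, 0 were called higher and 5 lower at 30 h, and at an unadjusted p under 0.05 the count higher was 0 by limma. Eif2b1, the alpha subunit of eIF2B, had 144, 120.2 and 183 at 30 h, against 574, 572 and 527 at 0 h (log2 -1.72, SE 0.17, adjusted p 2.06e-07). Its fall was late, with means of 541, 413 and 220 over 7, 14 and 21 h. Eif2b5, the catalytic subunit, averaged 187 ± 38.7 at 30 h and 453 ± 126 at 0 h (SD, n = 3 each; limma adjusted p 0.000258), and its other probe set was also called lower (log2 -1.53). Eif2b2 (log2 0.01, adjusted p 0.984) and Eif2b4 (0.13, 0.621, read by an _s_at probe set) did not pass the test. The measured subunits of one complex thus did not share a call, and the difference between them was not tested.

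Eif2s3x, the X-linked gene for the gamma subunit of eIF2, was among the brightest of this group. It had 1034, 1049.6 and 1055 at 30 h, against 1812, 2084 and 1844 at 0 h (log2 -1.002, adjusted p 3.17e-07). Its close copy Eif2s3y read between 1.4 and 24.5 on every array. Eif2a, a factor that can bring initiator tRNA without eIF2, had 58.4, 66 and 50.8 at 30 h, against 145, 152 and 156 at 0 h (log2 -1.10, adjusted p 3.56e-05). Its means stayed between 147 and 165 up to 14 h, and the 3 arrays at 21 h, at 100.1, 83.7 and 101, lay between the later and the earlier values. Eif2d, another non-canonical initiator tRNA factor, was lower too (log2 -0.75, adjusted p 0.00796), though not with the mean over all probe sets (adjusted p 0.0679).

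Genes outside the set that act around eIF2 went both ways. Of 21 measured targets and regulators of the eIF2 stress response, 6 were called higher and 7 lower at 30 h. Over all genes the shares were 14.7% and 16.5%. The 21 had a median log2 change of -0.13, beside 0.05 over all genes. Ppp1r15a (GADD34, the stress-induced partner that directs a phosphatase to eIF2) had 1074, 1082 and 939 at 30 h, against 127, 120.5 and 162 at 0 h (log2 2.77, adjusted p 1.95e-10). Its constitutive relative Ppp1r15b, named after its values were seen, had 1829, 1811 and 1611 at 30 h, against 519, 605 and 476 at 0 h (log2 1.58). Ddit3 (CHOP, a stress transcription factor) averaged 998, 1768 and 1522 over 14, 21 and 30 h, against 298 at 0 h (log2 2.25 at 30 h, adjusted p 1.19e-08). Psat1, an enzyme of serine synthesis, moved the opposite way, with 517, 539.8 and 492 at 30 h, against 2615, 3116 and 3334 at 0 h (log2 -2.59, adjusted p 5.32e-10). Atf4, which codes for the factor whose translation eIF2 phosphorylation favours, was lower, at 389.6 ± 15.5 at 30 h and 720.1 ± 111 at 0 h (log2 -0.80, limma adjusted p 0.00102). Asns, asparagine synthetase and a classical Atf4 target, was also lower (log2 -0.54, adjusted p 0.00283). Atf4 and Asns, too, were named after their values were seen. Arrays read mRNA, so neither phosphorylation of eIF2 nor Atf4 protein was measured.

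**Figure D3:**
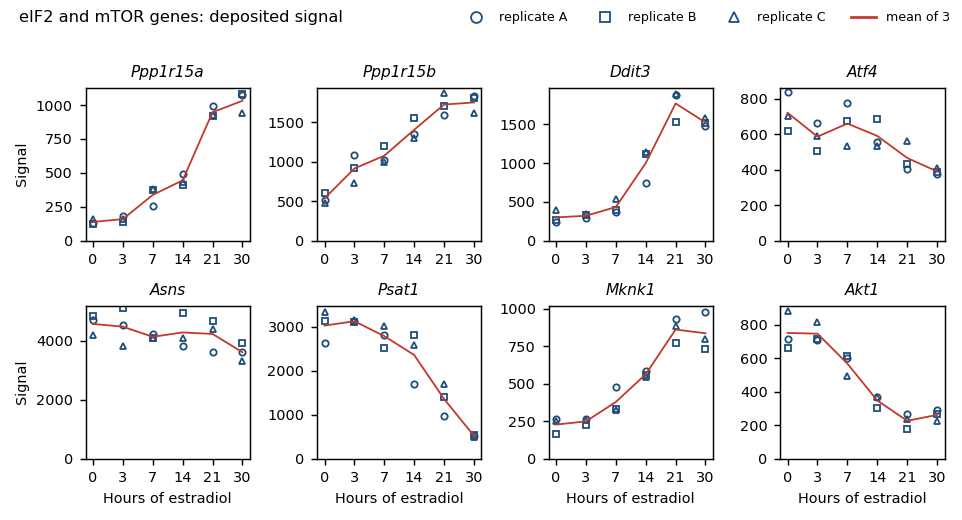
Deposited signal on each of the 18 arrays against hours of estradiol for genes of the eIF2 response (Ppp1r15a, Ppp1r15b, Ddit3, Atf4, Asns, Psat1) and of mTOR and Mnk signalling (Mknk1, Akt1), with points for replicates A, B and C and a line through the mean of 3. Ppp1r15a, Ppp1r15b, Ddit3 and Mknk1 were higher at 30 h than at 0 h on all 3 arrays, whereas Atf4, Asns, Psat1 and Akt1 were lower.

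The factors that scan for the start codon and join the subunits were all called by the F test (6 of 6, beside 32% of all genes). At 30 h, 2 of them were called higher and 3 lower. Eif1a and Eif1ax code for nearly identical forms of eIF1A, which opens the small subunit for scanning, so their probe sets may share signal. Eif1a had 88.7, 87.4 and 73.7 at 30 h, against 390.3, 415 and 320.1 at 0 h (log2 -1.91, SE 0.16, adjusted p 1.30e-08). Eif1ax had 153, 169 and 157 at 30 h, against 858, 638 and 675 at 0 h (log2 -1.999, SE 0.21, adjusted p 2.96e-07). Both fell stepwise and the second probe set of each was lower as well (log2 -1.39 and -1.30). The means of Eif1a over 0, 3, 7, 14, 21 and 30 h were 375, 349.7, 227, 152, 111 and 83.3.

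Eif5b, the GTPase that joins the 60S subunit, rose. It had 789, 874 and 744 at 30 h, against 327, 289.8 and 457 at 0 h (log2 1.18, SE 0.19, adjusted p 6.82e-05), and its second probe set gave a log2 change of 1.24. Its course was not steady, with means of 588, 535, 508 and 487 over 3, 7, 14 and 21 h. Eif1b, a relative of the start-codon selection factor eIF1, had 1019.6, 1111 and 1285 at 30 h, against 899, 751 and 790.3 at 0 h (log2 0.39, adjusted p 0.0294). Its highest mean, 1313, came at 21 h, and the 30 h call was lost without 0 h replicate B (adjusted p 0.110), 0 h replicate C (0.0925) or 30 h replicate C (0.154), without the intensity trend (0.0657) and with the compared times alone (0.0567). Eif6, which keeps 60S subunits apart from 40S subunits, was lower (log2 -0.81, adjusted p 0.000443). Eif5, which triggers GTP hydrolysis by eIF2, averaged 581 at 30 h, against 562 at 0 h (adjusted p 0.640) and was highest at 7 h, at 705, 712 and 734.

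eIF3 is the large scaffold that links the mRNA to the small subunit. Of its 10 measured subunits, 0 were called higher and 6 lower at 30 h, with a median log2 change of -0.45 (0 were higher at an unadjusted p under 0.05 in limma). Eif3c had 1845, 1730.4 and 1675 at 30 h, against 3001, 2944 and 2863 at 0 h (log2 -0.97, adjusted p 1.39e-06). Eif3b had 903, 1078 and 1002 at 30 h, against 1327, 1621 and 1630.1 at 0 h (log2 -0.71, adjusted p 0.000115). Eif3d, a subunit that can itself bind the cap, had 1974, 1992 and 1661 at 30 h, against 2223, 2718 and 2731 at 0 h (log2 -0.66, adjusted p 0.000150), and the call was lost when arrays were scaled to a common median (adjusted p 0.107). In these 3 subunits every array at 30 h lay below every array at 0 h.

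The calls of Eif3e, Eif3l and Eif3m depended on single arrays, and that of Eif3l on the scaling as well. Eif3e (log2 -0.81, adjusted p 0.0228) was lost without 0 h replicate A (0.0842) or 30 h replicate C (0.156). Eif3l (log2 -0.39, 0.0121) was lost without 0 h replicate B (0.0788) or with the mean over all probe sets (0.0586). Its change shrank to log2 -0.19 without quantile normalization (adjusted p 0.363) and to -0.18 with scaling to a common median (0.549). Eif3m (log2 -0.52, 0.0260) was lost without 0 h replicate A (log2 -0.28, adjusted p 0.191), 30 h replicate B (0.0681) or 30 h replicate C (0.0837), without the intensity trend (0.05002) and with the compared times alone (0.0839). Eif3k, a peripheral subunit, averaged 2356 at 30 h, against 1743 at 0 h (log2 0.20, adjusted p 0.332). Without quantile normalization Eif3k was called higher (log2 0.43, adjusted p 0.0391), and with scaling to a common median it was not (0.44, 0.0857). Eif3a, the largest subunit, averaged 381 at 30 h, against 409 at 0 h (adjusted p 0.958).

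The eIF4 factors recognise the cap and unwind the leader of the mRNA. Of 8 members, 0 were called higher and 4 lower at 30 h (0 higher at an unadjusted p under 0.05 in limma). Eif4a2, one of the paired helicases of the complex, had 228, 366 and 283 at 30 h, against 875, 1066 and 887 at 0 h (log2 -1.61, adjusted p 8.20e-07). Its relative Eif4a1, read by an _r_at probe set, had 182, 167 and 143 at 30 h, against 475, 417 and 384 at 0 h (log2 -1.22, adjusted p 3.92e-06). Both reached their low level by 21 h, at means of 265 and 168. Eif4b, which helps the helicase, had 814, 594 and 785 at 30 h, against 1716, 1491 and 1507 at 0 h (log2 -1.16, adjusted p 0.000198). That value came from a _g_at probe set and an _r_at one gave -1.31, both called. The plain probe sets of Eif4b averaged 12 and 9.03 at 30 h, against 16.3 and 16.6 at 0 h, too dim to show a fall. Eif4g3, a dim scaffold relative, was called lower (log2 -1.35, adjusted p 0.00247), with 56.7, 24.2 and 8.9 at 30 h, against 128, 73.4 and 86.9 at 0 h. Eif4e, the cap-binding protein, read at 13.1 at 30 h, against 13.5 at 0 h, too dim to follow here. The related Eif4e2, read by an _f_at probe set, gave log2 0.26 (adjusted p 0.384). Its other probe set, a plain one, averaged 159 at 30 h, against 103 at 0 h, and was called higher (log2 0.66, adjusted p 0.0120). The count of 0 higher in this class takes Eif4e2 by its _f_at probe set.

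Eif4ebp1 (4E-BP1), the repressor that holds Eif4e until mTOR phosphorylates it, fell. It had 204, 219.8 and 242 at 30 h, against 514, 432 and 696 at 0 h (log2 -1.14, SE 0.21, adjusted p 0.000293). Its means over 0, 3, 7, 14, 21 and 30 h were 548, 316, 304, 200.2, 136 and 222, so the lowest level stood at 21 h. It had the largest called fall of the set at 7 h (log2 -0.85) and 14 h (log2 -1.36). Eif4ebp2, its relative, had 1579, 1396 and 1306 at 30 h, against 1015, 839 and 865 at 0 h. These arrays did not overlap, yet the change missed the threshold (log2 0.51, SE 0.25, adjusted p 0.156), and it passed without quantile normalization (log2 0.65, adjusted p 0.0460), with scaling to a common median (0.0225), with a replicate block (0.0135) and with the compared times alone (0.0145). Eif4enif1, which carries Eif4e into the nucleus, read at 25, 19.7 and 10.1 at 30 h, against 21.4, 42.8 and 18.6 at 0 h.

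Of 12 genes of mTOR and Mnk signalling to translation, which are outside the set, 5 were called higher and 2 lower at 30 h. Over all genes the shares were 14.7% and 16.5%. The median log2 change of the 12 was 0.22. Mknk1, the kinase that phosphorylates Eif4e, had 981, 729 and 800.4 at 30 h, against 265, 162 and 253 at 0 h (log2 1.86, adjusted p 1.79e-07). Akt1, a kinase upstream of mTOR, had 292, 266 and 226 at 30 h, against 713, 662 and 880.5 at 0 h (log2 -1.41, adjusted p 8.78e-07). Larp1, which binds mRNAs of ribosomal proteins and factors, was higher (log2 0.71, adjusted p 0.000791).

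**Figure D4:**
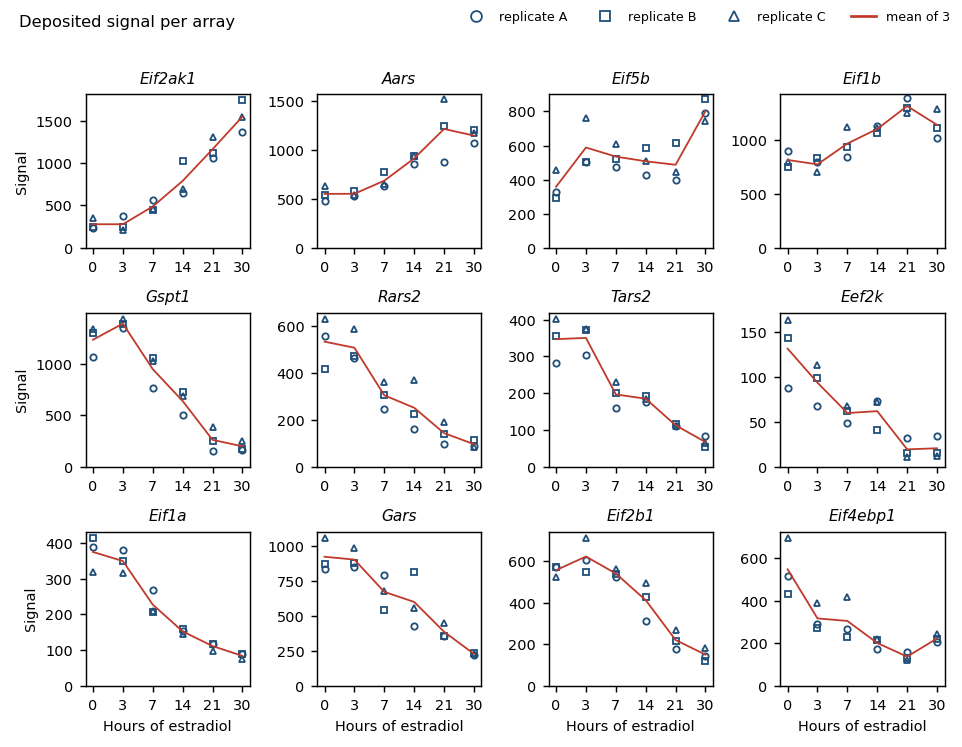
Deposited signal on each array against hours of estradiol for 12 members from different roles, with points for replicates A, B and C and a line through the mean of 3. Eif2ak1, Aars, Eif5b and Eif1b ended above their 0 h arrays, and the other 8, Gspt1 and Rars2 among them, ended below.

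The elongation class held both very bright and very dim members. Of 9, 1 was called higher and 3 lower at 30 h, beside 14.7% and 16.5% of all genes. The median log2 change of the class was 0.06. Eef1a1, which delivers charged tRNA to the ribosome, had 20633, 16438 and 18636 at 30 h, against 17319, 18902 and 16513 at 0 h. Its arrays overlapped, the log2 change was -0.25 (adjusted p 0.0950), and the sign turned to 0.08 both without quantile normalization and with scaling to a common median. It was called lower with a constant of 1 (adjusted p 0.0487) and with the dimmest probe sets left out (0.0193), at log2 -0.25 in each. Eef2, the translocation GTPase, averaged 9053 ± 853 at 30 h and 7104 ± 1318 at 0 h (SD, n = 3 each; limma adjusted p 0.132).

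Genes that regulate the elongation factors, or reload them, did include called members. Eef2k, the kinase that inactivates eEF2, had 34.6, 15.3 and 11.3 at 30 h, against 87, 143 and 163 at 0 h (log2 -1.997, SE 0.30, adjusted p 3.54e-05). Its lowest values, at 21 and 30 h, were near the dim end of the array, which limits the fold that can be read. Eef1d, part of the exchange factor that reloads eEF1A, had 863, 909.7 and 959.7 at 30 h, against 1090.5, 1577 and 1905 at 0 h (log2 -0.81, adjusted p 0.000254). Eef1akmt1, a methyltransferase of eEF1A, had 64, 70.5 and 78.7 at 30 h, against 141, 137 and 85.2 at 0 h (log2 -0.56, adjusted p 0.0497). That call held only when 0 h replicate C was the array left out, and without any other array of these times the adjusted p was 0.0715 to 0.178. It was also lost with a constant of 64 (0.0501) and with the compared times alone (0.118). Eef1b2, another exchange factor subunit, had 239, 201 and 268 at 30 h, against 116, 137 and 146 at 0 h (log2 0.87, adjusted p 0.0438). Its _r_at call needed all 6 arrays (with 1 left out, the adjusted p was 0.0518 to 0.136), and it was also lost without quantile normalization (0.0830), with scaling to a common median (0.0573), without the intensity trend (0.0571), with a replicate block (0.0515) and with the mean over all probe sets (log2 0.37, adjusted p 0.406). Its plain probe set averaged 23.2 at 30 h, against 24.8 at 0 h, too dim to follow (log2 -0.13). Eef1a2, Eef1g and Eif5a were dim and not called.

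The largest fall of the whole set was in termination. Gspt1 (eRF3a), the GTPase that works with the stop codon reader, had 166, 174 and 254 at 30 h, against 1064, 1304 and 1336 at 0 h (log2 -2.55, SE 0.24, adjusted p 7.80e-08). Its means over 0, 3, 7, 14, 21 and 30 h were 1235, 1392, 949, 639, 261 and 198. On the log2 scale the steepest step lay between 14 and 21 h. Etf1 (eRF1), the stop codon reader itself, had 739, 937 and 671 at 30 h, against 1148, 1204 and 878 at 0 h. Its brightest probe set missed the threshold (log2 -0.51, adjusted p 0.0548). It passed without 0 h replicate C or 30 h replicate B, with the dimmest probe sets left out (0.0376), array weights (0.0489), the compared times alone (0.0481) or the mean over all probe sets (log2 -0.71, adjusted p 0.000851), and 3 of its other 4 probe sets were called lower (log2 -1.25, -0.998 and -0.64).

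Around termination, 17 genes of poly(A) binding, ribosome recycling and factor modification were measured outside the set. At 30 h, 4 were called higher and 6 lower, beside 14.7% and 16.5% of all genes. Abce1, which splits the ribosome after termination, had 182, 169.6 and 198 at 30 h, against 564, 571 and 607 at 0 h (log2 -1.51, adjusted p 1.08e-07). Hbs1l, a relative of Gspt1 that rescues stalled ribosomes, had 223, 206 and 219 at 30 h, against 659.9, 679.8 and 739 at 0 h (log2 -1.55, adjusted p 3.74e-08). Gtpbp1, a GTPase related to eEF1A, is in the same list and moved the other way, with 1003, 1321 and 1376 at 30 h, against 419, 434 and 449.6 at 0 h (log2 1.41, adjusted p 7.09e-07).

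The cytosolic tRNA synthetases were the largest role class. Of 19, 2 were called higher and 11 lower at 30 h, and the median log2 change was -0.79. The F test called 14 of the 19, beside 32% of all genes. Gars (glycine, with a mitochondrial form from the same gene) had 220.1, 236 and 226 at 30 h, against 840.3, 873 and 1064 at 0 h (log2 -1.91, SE 0.18, adjusted p 1.04e-07). Iars (isoleucine) had 334, 299 and 386 at 30 h, against 800.1, 935 and 989 at 0 h (log2 -1.35, adjusted p 4.57e-06). Farsb, the beta subunit of the phenylalanine enzyme, had 53.6, 74.5 and 64.8 at 30 h, against 296, 243 and 358 at 0 h (log2 -1.91, adjusted p 1.08e-05). Its partner subunit Farsa did not pass the test, at 556 ± 83.3 at 30 h and 665 ± 82.6 at 0 h (SD, n = 3 each; log2 -0.23, limma adjusted p 0.387). The 2 genes code for subunits of one enzyme, and the difference between them was not tested.

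Aars (alanine) went against the class. It had 1070.1, 1206 and 1174 at 30 h, against 481, 543 and 632 at 0 h (log2 0.99, SE 0.14, adjusted p 1.54e-05). Its means over 0, 3, 7, 14, 21 and 30 h were 552, 553, 687, 916, 1218 and 1149.9. At 14, 21 and 30 h all 3 arrays lay above all 3 arrays at 0 h. Wars (tryptophan) was the other synthetase called higher, with 1014, 996 and 932 at 30 h, against 663, 779 and 596 at 0 h (log2 0.46, adjusted p 0.0185). Its call was lost without 0 h replicate C (adjusted p 0.105) or 30 h replicate A (0.0614), though 2 further Wars probe sets were also called higher (log2 0.64 and 0.52).

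The other 8 synthetases called lower ranged from a log2 change of -1.52 to -0.64. Eprs, which charges both glutamate and proline, averaged 72.9 ± 6.04 at 30 h and 253 ± 20.9 at 0 h (SD, n = 3 each). Nars (asparagine) gave log2 -1.19, Vars (valine) -0.99, Lars (leucine) -0.85, Rars (arginine) -0.85 and Hars (histidine) -0.79, and each was called. Cars (cysteine) had 72.5, 16.3 and 15.7 at 30 h, against 65.7, 122 and 136 at 0 h (log2 -1.36, adjusted p 0.0179). Replicate A of Cars at 30 h overlapped the 0 h arrays, and the call was lost without 0 h replicate B (0.0642), 0 h replicate C (0.0829), 30 h replicate B (0.0760) or 30 h replicate C (0.106), and with the compared times alone (0.0541). Mars1 (methionine) was lost without 0 h replicate C (log2 -0.46, adjusted p 0.0724). The synthetases for serine (Sars, log2 0.40), glutamine (Qars, 0.05), threonine (Tars, -0.45), tyrosine (Yars, -0.51) and lysine (Kars, 0.77) did not pass the test, and Kars was dim. Yars was called lower without quantile normalization (log2 -0.61, adjusted p 0.0272).

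**Figure D5:**
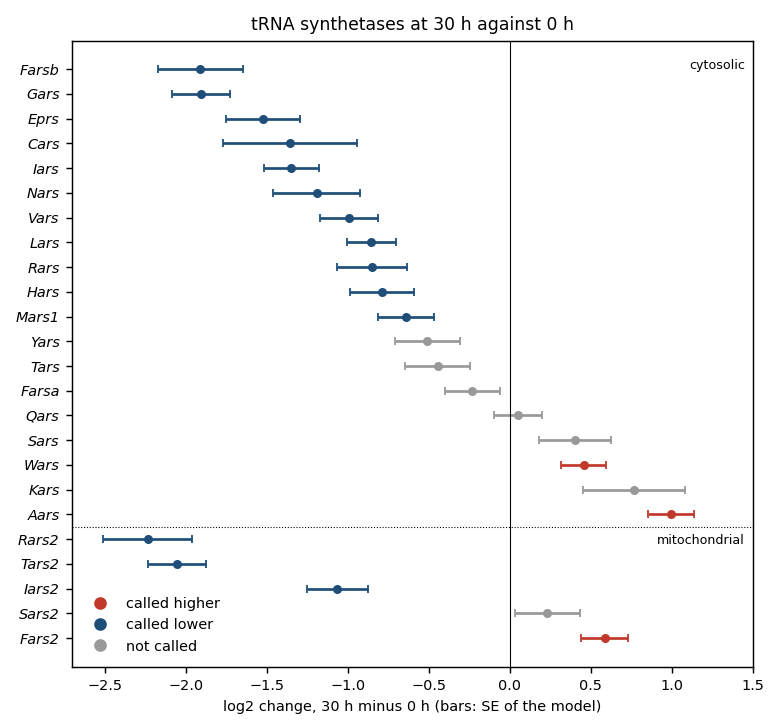
Log2 change at 30 h against 0 h, with its standard error, for each of the 19 cytosolic and 5 mitochondrial tRNA synthetases, red where called higher, blue where called lower and grey where not called. Aars, Wars and Fars2 are called higher, and 11 cytosolic and 3 mitochondrial synthetases are called lower.

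Promoter windows are shown for Aars, Gars and Iars because they share 1 short motif while Aars rose and the others fell. RefSeq windows of 300 bases (250 before to 50 after the annotated start) on build GRCm38.p6 were found for 59 of the 75 genes and for 6573 genes of the array. The letters TGATGNAA, or TTNCATCA on the other strand, are the core of the composite element that C/EBP and ATF factors, Atf4 among them, are known to bind in amino acid response genes. They stood in the windows of 7 of 59 members (11.9%), against 3.00% of the array's genes. The 7 were Aars, with 2 matches, and Gars, Iars, Tars, Yars, Eef2k and Eif2s3x, with 1 each. CACGTG, the E-box word bound by Myc and related factors, stood in 14 of 59 (23.7%), against 11.5%. The GATA words AGATAA or AGATAG, and likewise TGATAA or TGATAG, searched on both strands, stood in 9 of 59 (15.3%), against 24.1%. In the windows below, all on the plus strand, capitals mark matches to the first motif and to CACGTG, and no 2 matches overlap. The windows are chr8:111033592-111033891 for Aars, chr6:55037751-55038050 for Gars and chr13:49681880-49682179 for Iars.
Aars: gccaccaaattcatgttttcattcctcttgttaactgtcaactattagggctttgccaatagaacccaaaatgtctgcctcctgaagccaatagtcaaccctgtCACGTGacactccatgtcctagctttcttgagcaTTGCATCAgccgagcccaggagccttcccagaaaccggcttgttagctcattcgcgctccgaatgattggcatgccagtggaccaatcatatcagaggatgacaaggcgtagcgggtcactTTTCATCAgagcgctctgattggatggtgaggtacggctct
Gars: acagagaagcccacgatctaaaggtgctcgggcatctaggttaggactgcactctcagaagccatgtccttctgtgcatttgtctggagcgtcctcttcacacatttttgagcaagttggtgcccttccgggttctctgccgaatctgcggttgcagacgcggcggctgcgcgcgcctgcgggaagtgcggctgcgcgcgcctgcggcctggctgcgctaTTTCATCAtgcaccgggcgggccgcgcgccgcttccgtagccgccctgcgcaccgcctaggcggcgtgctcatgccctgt
Iars: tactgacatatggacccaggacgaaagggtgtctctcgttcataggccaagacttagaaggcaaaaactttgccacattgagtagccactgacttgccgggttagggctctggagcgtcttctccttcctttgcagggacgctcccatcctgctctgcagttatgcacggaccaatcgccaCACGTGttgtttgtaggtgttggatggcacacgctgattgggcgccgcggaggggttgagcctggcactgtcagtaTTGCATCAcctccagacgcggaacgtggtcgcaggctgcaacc
A match describes these letters, and no binding was measured in these samples. The core letters of the composite element thus stood in the window of a gene that rose at 30 h (Aars). They also stood in those of 4 that fell (Gars, Iars, Eef2k and Eif2s3x) and 2 that were not called (Tars and Yars).

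Genes that work beside the synthetases fell with most of them. Of 8 measured genes for the multisynthetase scaffold and tRNA charging partners, outside the set, 0 were called higher and 7 lower at 30 h, with a median log2 change of -0.92 (0 were higher at an unadjusted p under 0.05 in limma). Nsun2, a tRNA methyltransferase read by a _g_at probe set, had 147, 129 and 118 at 30 h, against 1486, 1605 and 1892 at 0 h (log2 -3.52, adjusted p 5.72e-12). Ppa1, the pyrophosphatase that removes a product of tRNA charging, had 102, 83.7 and 139 at 30 h, against 367, 391 and 289.9 at 0 h (log2 -1.49). Dtd1, which clears tRNAs charged with D-amino acids, gave log2 -1.67 (adjusted p 1.61e-05). The scaffold protein genes Aimp2 (log2 -0.83, adjusted p 0.00528) and Aimp1 (-0.19, 0.399) stood on either side of the threshold.

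Of the 5 mitochondrial synthetases, 1 was called higher and 3 lower at 30 h, beside 14.7% and 16.5% of all genes. Rars2 (arginine) had 88.9, 114 and 84.5 at 30 h, against 554, 415 and 628 at 0 h (log2 -2.23, SE 0.28, adjusted p 2.93e-06). Tars2 (threonine) had 83.3, 53.4 and 64.2 at 30 h, against 284, 357 and 402 at 0 h (log2 -2.05, SE 0.18, adjusted p 2.87e-08). Iars2 (isoleucine) had 157, 191 and 153 at 30 h, against 339, 366 and 480 at 0 h (log2 -1.06, adjusted p 0.000178). All 3 were lower on every 30 h array than on any 0 h array. Fars2 (phenylalanine) had 271, 279.5 and 271 at 30 h, against 186, 183 and 211 at 0 h (log2 0.58, SE 0.14, adjusted p 0.00381). Its mean was lowest at 14 h (150.2), so the rise came after that. Sars2 (serine) did not pass the test (log2 0.23, adjusted p 0.467).

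Of 6 mitochondrial translation factors outside the set, 0 were called higher and 4 lower at 30 h, with a median log2 change of -0.70 (0 were higher at an unadjusted p under 0.05 in limma). Tsfm, the mitochondrial exchange factor, had 124, 111 and 119 at 30 h, against 313, 408 and 397 at 0 h (log2 -1.44, adjusted p 6.21e-07). Tufm, the mitochondrial counterpart of eEF1A, had 166, 211 and 133 at 30 h, against 447, 496 and 539 at 0 h (log2 -1.39, adjusted p 2.92e-05). Gfm1, the mitochondrial translocase, was lower too (log2 -0.71, adjusted p 0.0227), a call lost without 0 h replicate C (0.170) or 30 h replicate C (0.101).

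Comparisons of neighbouring times placed few members. Between 3 and 7 h, 2 were called higher and 2 lower (background 0.945% and 0.351%), namely Eif2ak1 (log2 0.86) and Eif5 (0.44), and Rars (-0.91) and Tars2 (-0.78). Rars had 412, 499 and 397 at 7 h, against 750.1, 829 and 865 at 3 h, and these arrays did not overlap. These 4 calls were fragile. Eif5 and Rars each needed all 6 arrays (with 1 left out, the adjusted p was 0.0904 to 0.182), Eif2ak1 was lost without any array other than 3 h replicate A (0.0828 to 0.237), and Tars2 was lost without any other than 7 h replicate C (0.0620 to 0.176). Between 7 and 14 h, limma called 0 higher and 0 lower (1.53% and 1.35%), with 3 and 12 at an unadjusted p under 0.05.

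Between 14 and 21 h, 0 members were called higher (4 at an unadjusted p under 0.05 in limma) and 3 lower, beside 1.16% and 1.66% of all genes. Gspt1 had 152, 247 and 383 at 21 h, against 500.3, 731 and 686 at 14 h (log2 -1.30, adjusted p 0.00555), and its call held without any single array but not with the compared times alone (0.144). Eif2b1 (log2 -0.81, adjusted p 0.0159) was lost without 14 h replicate B, 14 h replicate C or 21 h replicate A (0.0626 to 0.107). Hars (log2 -0.80, adjusted p 0.0385) was lost without 14 h replicate B or C or 21 h replicate A or B (0.0553 to 0.182).

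Between 21 and 30 h, 2 members were called higher and 8 lower, beside 2.24% and 3.9% of all genes. Kars had 64.5, 42.1 and 83.4 at 30 h, against 27.4, 13 and 11.2 at 21 h (log2 1.31, adjusted p 0.0193), a dim gene whose call was lost without 21 h replicate B or C or 30 h replicate A or C (0.0609 to 0.0914). Eif5b was the other one called higher (log2 0.71), and it was called only without 21 h replicate B (0.0814 to 0.128 without the others). Cars had 72.5, 16.3 and 15.7 at 30 h, against 109.8, 112 and 156 at 21 h (log2 -1.66, adjusted p 0.0227), and was lost without 21 h replicate B or C or 30 h replicate B or C (0.0578 to 0.121). Vars had 714, 618 and 592 at 30 h, against 1100.3, 1162 and 1408 at 21 h (log2 -0.84, adjusted p 0.00747) and was called without any single array. Of the calls between neighbouring times, Vars alone also kept its call under every other scaling, constant, filter, variance model and probe set choice that was run. Of the 8 called lower, 6 were synthetases (Cars, Gars, Iars, Lars, Tars2 and Vars), and the others were Eif2a and Eif2s3x. The 8 became 1 without 21 h replicate B or C, 2 without 30 h replicate B or C and 4 without 30 h replicate A.

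The 5 calls at 7 h against 0 h were as sensitive. Besides Eif2ak1 they were Eif1a (log2 -0.69), Eif4a2 (-0.72), Eif4ebp1 (-0.85) and Tars2 (-0.77). Eif1a was lost without 0 h replicate A or B or 7 h replicate B or C (adjusted p 0.0525 to 0.0722). Eif4a2 was lost without 0 h replicate B or any 7 h replicate (0.0581 to 0.132). Eif4ebp1 was lost without 0 h replicate A or C or 7 h replicate A or B (0.0637 to 0.152). Tars2 was lost without 0 h replicate B or C or 7 h replicate A (0.0594 to 0.0910). Each of the 5 was also lost with scaling to a common median or with the compared times alone. All 5 were called in the same direction at 14, 21 and 30 h.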

How the data were processed

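RNA of 18 samples (6 times, 3 biological replicates each) was read on Affymetrix MG-U74Av2 arrays, per the labels. The deposited values are intensity values on a linear scale, 1 per probe set. Their 2% trimmed mean was 150.1 on every array, so the authors had scaled the arrays before deposit, and the summary algorithm, scaling target and detection calls are not given in the sources used here. Precision is limited by the number of arrays.

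Of 12488 probe sets, 66 controls were left out. The platform table gave 1 gene symbol to 10833 of the other 12422, several to 396 and none to 1193. The members and gene lists were chosen with earlier results of these data known. With limma 3.58.1 in R 4.3.3, log2(signal + 16) was quantile normalized and fitted with 1 mean per time over 18 arrays (12 residual degrees of freedom), with eBayes and an intensity trend, and the procedure was tested on simulated data. Standard errors are those of the model.

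Values in every array are given by a rule. It took the 3 members with the smallest F-test p in each role class, the 8 largest called rises and falls without overlap at 30 h (7 such rises were found), the largest called change each way in the other comparisons, and Eif2ak1, Eif4ebp1 and Eef1a1. From each list outside the set it took the 3 genes with the smallest F-test p. Ppp1r15b, Atf4, Asns, Aimp1 and Aimp2 were named outside the rule. The members Eif4g3, Eif5 and Vars also had values per array given outside it. Alternatives were other scalings and constants, a filter on dim probe sets, other variance models, weights, probe set choices, a replicate block, and each array left out in turn. Promoter windows came from RefSeq on GRCm38.p6.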

Additional observations from a re-analysis of the deposited data

How the results depend on the processing

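Counts of called members against 0 h moved by over 1.5 times as follows. At 3 h, 1 member was higher with the mean over all probe sets and 1 lower with a replicate block. At 7 h the 1 called higher became 0 with scaling to a common median or the compared times alone, 2 with a constant of 64, array weights or the mean over all probe sets, and 3 with the replicate block, and the 4 lower became 7 with array weights and 2 with the compared times alone. The 3 higher at 14 h became 5 with the block, and the 3 higher at 21 h became 5 with the values as deposited, the block or the mean over all probe sets. At 30 h no such alternative moved either count that far. For 7 h against 3 h, the 2 higher became 0 (as deposited, median scaling, a constant of 1, no intensity trend, compared times alone) or 1 (a constant of 64, block, mean over all probe sets), and the 2 lower became 0 (median scaling, a constant of 1, no trend) or 1 (as deposited, compared times alone, mean over all probe sets). For 14 h against 7 h, the block gave 1 higher and the mean over all probe sets 1 lower. For 21 h against 14 h, 1 was higher with a constant of 64, the dimmest probe sets left out, array weights, the block or the mean over all probe sets, and the 3 lower became 1 with median scaling and 0 with the compared times alone. For 30 h against 21 h, the 2 higher became 1 (median scaling, no trend, array weights, compared times alone) or 4 (block), and the 8 lower became 3 (median scaling), 5 (a constant of 64), 4 (no trend) or 2 (compared times alone). The causes were not tested.

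With each array left out in turn, the counts higher and lower were 0 to 1 and 0 to 0 at 3 h, 0 to 2 and 1 to 3 at 7 h, 2 to 3 and 10 to 18 at 14 h, 3 to 4 and 22 to 26 at 21 h, and 4 to 6 and 33 to 36 at 30 h. They were 0 to 1 and 0 to 1 for 7 h against 3 h, 0 to 0 both ways for 14 h against 7 h, 0 to 1 and 1 to 4 for 21 h against 14 h, 0 to 1 and 1 to 6 for 30 h against 21 h, and 37 to 43 for the F test. Of single genes, Eef1a1 at 30 h changed sign as deposited (log2 0.075) and with median scaling (0.083), and Eef1b2 with plain probe sets (-0.13, from a dim one). Over the single-gene log2 changes followed, other alternatives kept 862 of direction and call, weakened 79, strengthened 10 and reversed 3. Leaving out arrays kept 437, weakened 119, strengthened 2 and reversed 0. The counts of called members are not part of these totals.

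The labels do not say what samples with the same replicate letter shared. Deviations correlated above 0.1 in 3 of 45 same-letter pairs (median 0.03, highest 0.20). Of 90 other pairs 0 did (median -0.01, highest 0.07). The correlations were weak, and what lay behind the 3 was not tested. The main fit left the letters out. They were used as a block only in the replicate block fit, whose counts are given above. Leaving out the dimmest 33.3% of probe sets left 71 members, plain probe sets left 72, and the 10 members under a mean signal of 50 bear little fold information.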
